A study of Mus musculus with 12 samples.

Results

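The genes described here sense, store and export cholesterol in macrophages: the liver X receptors (LXR) Nr1h3 and Nr1h2, their targets Abca1, Abcg1, Mylip and Pltp, the oxysterol-producing enzyme Ch25h, and the enzymes Soat1 and Nceh1 that store and release cholesteryl esters. They were taken by symbol from the count matrix, which gave 9 of 56748 listed genes, and all 9 passed the filter on low counts among 15033 genes tested. Macrophages were grown from C57BL/6J bone marrow with 20 ng/mL M-CSF (bone marrow-derived macrophages, BMDM) and polarized to an M2-like state with 10 ng/mL IL-4 for 48 hours. They were then exposed for 72 hours to 1 of 4 conditions of 3 libraries each, and the series text gives 3 mice per condition without saying whether conditions shared mice. Control BMDM received unsupplemented medium. The eGFP supernatant group received supernatant of YUMM5.2 eGFP melanoma cells, the Ifnb1eGFP supernatant group that of YUMM5.2 Ifnb1eGFP cells set to 1500 pg/mL IFNβ, and the rIFNβ group recombinant IFNβ at an equivalent concentration. Both YUMM5.2 lines carried a lentiviral, tetracycline-responsive vector and had been treated with 1 µg/mL doxycycline (Dox) for 72 hours, and the eGFP supernatant was diluted at the ratio of the Ifnb1eGFP supernatant. Carried-over Dox and tumor cell products could therefore be present in both supernatant conditions but not in the control and rIFNβ conditions. Whether the supernatants differed in products other than IFNβ was not tested, and 1 concentration and 1 time were measured.

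LXRs are nuclear receptors that bind oxysterols, which are oxidized forms of cholesterol, and pair with retinoid X receptors on DNA elements built of direct repeats spaced by 4 bases (DR4). In macrophages loaded with cholesterol they raise the transporters that hand cholesterol to apolipoproteins and lipoprotein particles, and they raise Mylip, an E3 ubiquitin ligase that limits lipoprotein uptake. Cholesterol that is not exported is esterified by Soat1 and kept in lipid droplets, from which Nceh1 releases it again. Type I interferons are known to touch this pathway at Ch25h, whose product 25-hydroxycholesterol holds back cholesterol synthesis.

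The start regions of 8 of the 9 genes were matched in RefSeq (build GRCm38.p6), with 2 windows for Nr1h3 and none for Abcg1. Each window ran from 250 bases before to 50 bases after the start. Searched on both strands, a loose DR4-like pair, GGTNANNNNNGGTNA, was found in 1 member, Abca1, and in 0.719% of all 32841 windows. The strict form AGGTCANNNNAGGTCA, whose matches are all matches of the loose form too, was in 0.0152% of windows and in no member window. An interferon-response-like pattern, GAAANNGAAA, was in 3.44% of windows and also in no member window. The 250 bases before the start are shown for Abca1, the member with the match, and for Mylip, with the largest called rise in the main fit. They are also shown for Ch25h, the member known best as an interferon-inducible gene. Capitals mark the DR4-like match, which read on the strand opposite the gene is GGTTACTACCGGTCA and lies at bases -67 to -53 from the start. Absence of a match says only that these letters are not in these windows.
Abca1, chr4:53159896-53160145, minus strand: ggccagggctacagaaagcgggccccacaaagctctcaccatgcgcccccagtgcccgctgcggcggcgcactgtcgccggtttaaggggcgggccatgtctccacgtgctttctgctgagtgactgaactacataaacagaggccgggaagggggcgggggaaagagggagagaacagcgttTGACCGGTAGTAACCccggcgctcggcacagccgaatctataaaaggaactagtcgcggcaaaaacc
Mylip, chr13:45389492-45389741, plus strand: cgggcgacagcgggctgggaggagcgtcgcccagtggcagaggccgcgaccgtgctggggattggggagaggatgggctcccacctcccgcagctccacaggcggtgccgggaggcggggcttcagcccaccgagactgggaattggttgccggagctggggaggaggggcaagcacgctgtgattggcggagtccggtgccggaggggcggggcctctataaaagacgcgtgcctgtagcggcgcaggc
Ch25h, chr19:34475149-34475398, minus strand: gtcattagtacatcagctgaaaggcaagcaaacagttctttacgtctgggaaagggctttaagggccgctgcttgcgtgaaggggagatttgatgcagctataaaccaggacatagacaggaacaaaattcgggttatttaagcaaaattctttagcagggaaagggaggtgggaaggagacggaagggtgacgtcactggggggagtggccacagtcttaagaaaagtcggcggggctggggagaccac

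Libraries held 31526034 to 45348457 counts, and levels are given as counts scaled to library size (CPM). Macrophage markers (7 of 7 genes tested) summed to 14120 to 15260 CPM in control and 17930 to 18460 CPM after eGFP supernatant, and to 10290 to 10580 CPM after Ifnb1eGFP supernatant and 9648 to 9821 CPM after rIFNβ. In both IFNβ comparisons 4 of these 7 were called higher (Adgre1, Cd68, Fcgr1 and Mertk), Csf1r was not called, and 2 were called lower, Itgam and the abundant Lyz2, which stood at 12400 ± 385 CPM after eGFP and 4111 ± 209 CPM after Ifnb1eGFP supernatant (SD, n = 3). Melanoma markers (6 genes) stayed between 0.224 and 0.810 CPM in sum, with Tyrp1 at 0 in all 12 libraries. A neutrophil list of 5 genes summed to 4.28 to 5.72 CPM without IFNβ and 0.208 to 0.985 CPM with it, nearly all of it S100a8 without IFNβ, where Ly6g and Mpo were at 0. A dendritic cell list of 4 genes, led by Zbtb46, summed to 1.24 to 1.61 CPM and 0.273 to 0.456 CPM. A T cell list of 5 genes summed to 3.75 to 5.05 CPM without IFNβ and 8.09 to 9.96 CPM with it, nearly all of it Cd4, with Cd3e and Trac at 0 in the groups without IFNβ. A fibroblast and stroma list of 5 genes summed to 30.4 to 82.6 CPM without IFNβ and 46.2 to 73.9 CPM with it. M2-like markers (4 genes) summed to 738 to 960 CPM and 825 to 1019 CPM, with Arg1 at most 0.877 CPM. Of these 4, 1 was called higher and 0 lower in both IFNβ comparisons. The part of these differences in the results below was not tested, and in bulk RNA fewer cells of a type cannot be told apart from less RNA per cell. A list of 9 interferon-response genes summed to 10170 to 11290 CPM in the IFNβ conditions, 177 to 251 CPM in control, and 182 and 268 CPM in eGFP supernatant replicates 3 and 1, but 909 CPM in eGFP supernatant replicate 2. Ifnb1eGFP supernatant replicates 1 and 2 stood apart by base composition: the median deviation of the 20% of genes richest in GC minus that of the 20% poorest was -0.33 and 0.33 on the log2 scale, against -0.09 to 0.09 in the other 10 libraries.

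Between IFNβ-exposed and unexposed BMDM, members moved in both directions. The oxysterol receptor Nr1h3, the transporter Abcg1, the lipid transfer protein Pltp, the ligase Mylip and the ester hydrolase Nceh1 were higher with IFNβ, while the transporter Abca1 and the esterifying enzyme Soat1 were lower. These 7 of 9 genes passed adjusted p of at most 0.05 (edgeR's quasi-likelihood test, Benjamini-Hochberg adjustment) in Ifnb1eGFP supernatant against eGFP supernatant, and the same 7 passed in the same direction in rIFNβ against control, which shares no library with it. The background of such calls was high, at 55.1% and 55.3% of all tested genes, so 7 of 9 called members stand beside a change in most genes. The 5 rises stand beside 30.1% and 30.7% of tested genes called higher, and 2 falls beside 25% and 24.6% called lower. These 7 genes did not overlap between the compared groups in Ifnb1eGFP against eGFP supernatant (59% of all tested genes did not), and they and Ch25h did not in rIFNβ against control (66.1%). The changes were moderate. The median signed log2 fold change of the members was 0.33 and 0.39, against 0.03 and 0.04 over all tested genes. Rises and falls cancel in signed medians, and the median absolute log2 fold change over all tested genes was 0.37 in both comparisons. Mylip with rIFNβ was the 1 member past a log2 fold change of 1 (background 15.4% and 16%). No member reached the study's thresholds of an absolute log2 fold change of 2 and adjusted p of 0.01, which 5.39% and 5.77% of genes passed.

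**Figure D1:**
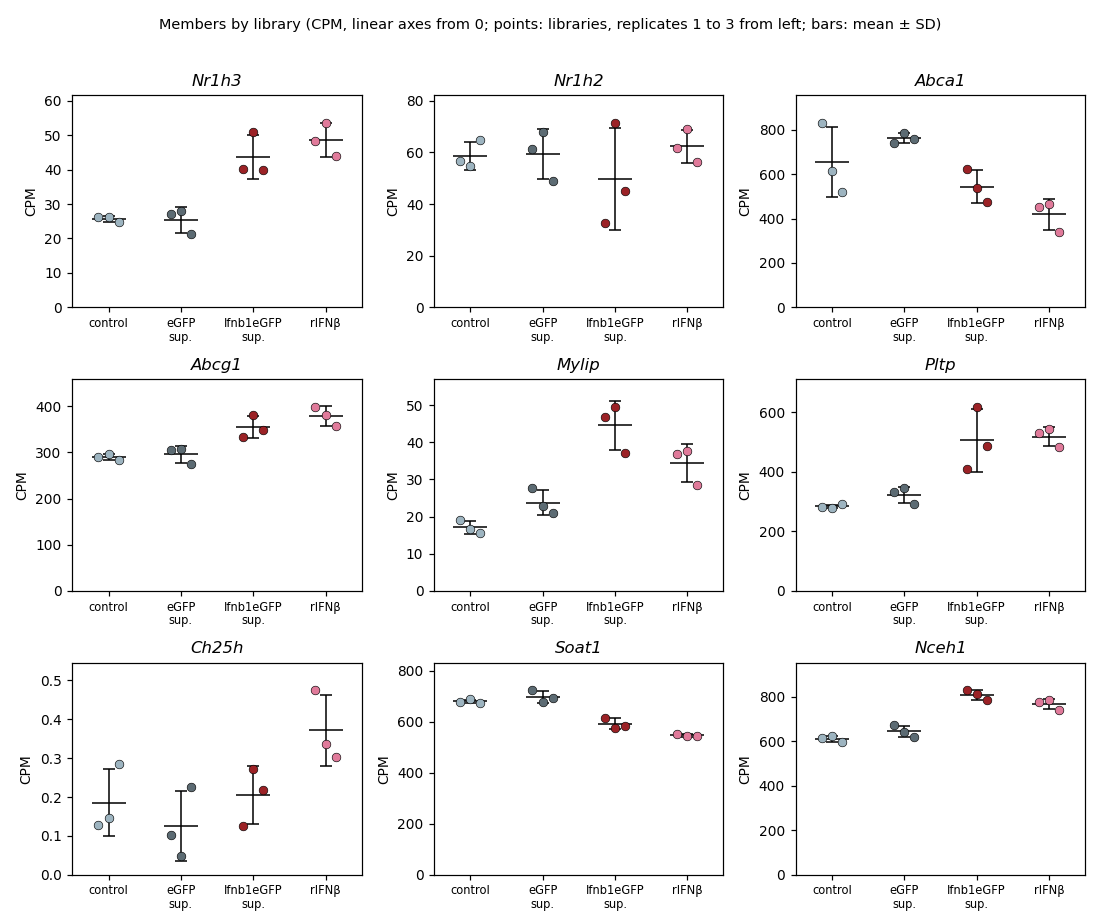
CPM of the 9 members in each library (linear axes from 0) by condition. Points are libraries, replicates 1 to 3 from left, and bars are the mean ± SD (n = 3). Nr1h3, Mylip, Abcg1, Pltp and Nceh1 lie higher and Soat1 lower in every IFNβ library than in every library without it, Abca1 is spread between 522 and 831 CPM in control, and Ch25h stays at or under 0.475 CPM.

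Nr1h3 encodes LXRα, the receptor form concentrated in macrophages, liver and fat (chr2:91014394-91033417, minus strand, GRCm39). Its libraries gave 26.4, 26.2 and 24.7 CPM in control, 27.2, 28.0 and 21.2 CPM after eGFP supernatant, 40.1, 51.0 and 39.8 CPM after Ifnb1eGFP supernatant, and 48.3, 53.6 and 43.9 CPM with rIFNβ. Every IFNβ library lay above every library without it. The log2 fold change was 0.78 (SE 0.12, adjusted p = 0.000222) for Ifnb1eGFP against eGFP supernatant and 0.92 (SE 0.12, adjusted p = 6.2e-05) for rIFNβ against control. Of its merged exon length, 256 bases (5.06%) overlap Acp2, a lysosomal acid phosphatase gene on the opposite strand, and Acp2 itself was higher by 0.75 and 0.79 on the log2 scale in these comparisons. The library kit marks strand, but the strand setting of the counting is not given in the sources used here, so the share of Nr1h3 counts that came from Acp2 was not tested.

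Nr1h2 encodes LXRβ, the form found in most tissues (chr7:44199036-44203406, minus strand). It gave 56.6, 54.7 and 64.9 CPM in control, 61.2, 68.0 and 49.1 CPM after eGFP supernatant, 32.5, 71.5 and 45.04 CPM after Ifnb1eGFP supernatant, and 61.7, 68.9 and 56.3 CPM with rIFNβ. The Ifnb1eGFP supernatant libraries spanned more than the range of the other 3 conditions, and they overlapped with each of them. Neither comparison passed the test, with log2 fold changes of -0.26 (95% interval -0.76 to 0.24, adjusted p = 0.359) and 0.09 (95% interval -0.41 to 0.58, adjusted p = 0.777). Nr1h2 had the highest GC content of the members, 59.7% in its longest transcript, and its low and high values fell in the 2 libraries that stood apart by GC. Without Ifnb1eGFP supernatant replicate 2 it was called lower than with eGFP supernatant (-0.61, adjusted p = 0.00725). With the GC content and length trend removed the value was 0.06 (adjusted p = 0.695), so no direction is given for it.

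Per kilobase of merged exons, a scale that adjusts levels of different genes for 1 measure of length, Nr1h2 exceeded Nr1h3 in all 12 libraries. The ratio of Nr1h2 to Nr1h3 was 3.05 to 3.84 in control and 3.29 to 3.55 with eGFP supernatant, then 1.19 to 2.05 with Ifnb1eGFP supernatant and 1.87 to 1.88 with rIFNβ. The ranges with and without IFNβ did not overlap, and the mean log2 ratio was 1.73 ± 0.18, 1.77 ± 0.05, 0.67 ± 0.40 and 0.91 ± 0.01 (SD, n = 3) in this order of conditions.

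Abca1 passes cholesterol and phospholipid to lipid-poor apolipoprotein A-I (chr4:53030787-53159900, minus strand). It gave 831, 614 and 522 CPM in control, 741, 786 and 758 CPM after eGFP supernatant, 624, 536 and 473 CPM after Ifnb1eGFP supernatant, and 451, 465 and 339 CPM with rIFNβ. Both IFNβ groups lay below their own comparison group without overlap, but the control libraries were themselves spread by SD 159 CPM and overlapped the Ifnb1eGFP supernatant libraries. Against eGFP supernatant the level with Ifnb1eGFP supernatant was 1.40-fold lower (log2 fold change -0.48, SE 0.17, adjusted p = 0.0278), and against control the level with rIFNβ was 1.57-fold lower (-0.65, SE 0.17, adjusted p = 0.00621). The first of these calls was lost when eGFP supernatant replicate 1, 2 or 3 or Ifnb1eGFP supernatant replicate 2 or 3 was left out (-0.50 to -0.39, adjusted p 0.052 to 0.105), replicate 2 of the eGFP supernatant being the library with raised interferon-response genes. The rIFNβ call was kept without any 1 library (-0.79 to -0.44, adjusted p at most 0.0279). With the GC content and length trend removed the 2 values were -0.42 (adjusted p = 0.0138) and, for rIFNβ, -0.45 (adjusted p = 0.00981).

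Abcg1 loads cholesterol onto mature HDL particles and moved the other way (chr17:31276649-31336969, plus strand). It gave 290.0, 295.9 and 282.5 CPM in control, 305.7, 307.2 and 273.7 CPM after eGFP supernatant, 334.1, 380.0 and 347.9 CPM after Ifnb1eGFP supernatant, and 398.9, 380.9 and 356.9 CPM with rIFNβ. No IFNβ library overlapped a library without it. The rises were small in fold, 1.20-fold (log2 fold change 0.26, SE 0.06, adjusted p = 0.00464) and 1.31-fold (0.39, SE 0.06, adjusted p = 0.000296). Per kilobase, Abcg1 was below Abca1 in all 6 libraries without IFNβ, at 0.556 to 0.862 of its level in control and 0.575 to 0.657 with eGFP supernatant. The ratio was 0.853 to 1.17 with Ifnb1eGFP supernatant and 1.304 to 1.675 with rIFNβ, where Abcg1 exceeded Abca1 in all 3 libraries. Over the 12 libraries, whose spread is mostly that between conditions, the log2 levels of the 2 transporters had Pearson's r of -0.70.

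Pltp, the phospholipid transfer protein that remodels HDL, had the second highest level per length among members under IFNβ (chr2:164677702-164701743, minus strand). It gave 282, 279 and 290 CPM in control, 332, 344 and 292 CPM after eGFP supernatant, 410, 618 and 486 CPM after Ifnb1eGFP supernatant, and 529, 543 and 482 CPM with rIFNβ. The IFNβ libraries again lay above all others, and the Ifnb1eGFP libraries were the most spread, with the lowest and highest in the same libraries as for Nr1h2. Pltp was 1.57-fold higher with Ifnb1eGFP supernatant (log2 fold change 0.65, SE 0.12, adjusted p = 0.000861) and 1.83-fold higher with rIFNβ (0.87, SE 0.12, adjusted p = 9.2e-05). With the GC content and length trend removed the log2 fold changes were 0.83 and 0.96. On the opposite strand, Ctsa, a lysosomal protease gene, covers 1252 bases (21.2%) of the merged exons of Pltp, and Ctsa was lower in both comparisons, by log2 fold changes of -0.23 and -0.21.

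Mylip, the ubiquitin ligase that limits lipoprotein uptake, changed most among the called members in the main fit (chr13:45543215-45565501, plus strand). It gave 19.0, 16.6 and 15.6 CPM in control, 27.6, 22.9 and 20.9 CPM after eGFP supernatant, 46.8, 49.6 and 37.2 CPM after Ifnb1eGFP supernatant, and 36.9, 37.6 and 28.6 CPM with rIFNβ. Steps without overlap were seen, from control to eGFP supernatant to the IFNβ conditions, while the IFNβ conditions overlapped each other. Mylip was 1.87-fold higher with Ifnb1eGFP than with eGFP supernatant (log2 fold change 0.90, SE 0.14, adjusted p = 0.000224) and 2.02-fold higher with rIFNβ than in control (1.01, SE 0.15, adjusted p = 0.000109). With the GC content and length trend removed its log2 fold changes were 0.86 and 0.97, beside 0.89 and 0.96 for Nr1h3, so the first rank depends on the processing. Mylip acts on protein, which was not measured.

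Ch25h makes 25-hydroxycholesterol and was barely detected (chr19:34451178-34452564, minus strand, 1 exon). It had 4, 5 and 12 counts in control, 4, 2 and 9 counts after eGFP supernatant, 5, 11 and 10 counts after Ifnb1eGFP supernatant, and 16, 15 and 12 counts with rIFNβ, or at most 0.475 CPM. In CPM, the rIFNβ libraries lay above all others, and the other groups overlapped. The log2 fold changes of 0.71 (95% interval -0.46 to 1.88, adjusted p = 0.282) and 0.94 (95% interval -0.11 to 1.98, adjusted p = 0.119) did not pass the test. Its single exon shares 698 bases (50.3%) with Gm26902, a noncoding RNA gene on the opposite strand. Gm26902 had 1, 0 and 0 counts in control, 0, 3 and 0 counts after eGFP supernatant, 2, 3 and 4 counts after Ifnb1eGFP supernatant, and 4, 6 and 4 counts with rIFNβ, so it was highest with rIFNβ, as Ch25h was, and the share of Ch25h counts that came from it was not tested.

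Soat1 and Nceh1 work on the same pool of cholesteryl esters in opposite directions, and their transcripts also moved in opposite directions. Soat1, the enzyme that esterifies free cholesterol (chr1:156252095-156303864, minus strand), gave 677, 688 and 675 CPM in control, 723, 678 and 692 CPM after eGFP supernatant, 616, 576 and 582 CPM after Ifnb1eGFP supernatant, and 551, 543 and 544 CPM with rIFNβ. It was 1.18-fold lower with Ifnb1eGFP supernatant (log2 fold change -0.24, SE 0.04, adjusted p = 0.0004) and 1.25-fold lower with rIFNβ (-0.32, SE 0.04, adjusted p = 4.2e-05). Nceh1, a neutral cholesteryl ester hydrolase (chr3:27236975-27338764, plus strand), gave 613, 624 and 598 CPM in control, 673, 640 and 621 CPM after eGFP supernatant, 830, 815 and 785 CPM after Ifnb1eGFP supernatant, and 776, 785 and 740 CPM with rIFNβ. For both genes the IFNβ libraries and the libraries without IFNβ did not overlap. Nceh1 was 1.26-fold and 1.25-fold higher, a log2 fold change of 0.33 in each comparison (SE 0.04, adjusted p = 6.3e-05 and 6.7e-05), which became 0.20 (adjusted p = 0.00522) and 0.23 (adjusted p = 0.00194) with the GC content and length trend removed. The per-kilobase ratio of Nceh1 to Soat1 was 1.49 to 1.58 in the 6 libraries without IFNβ and 2.26 to 2.43 in the 6 with it.

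**Figure D2:**
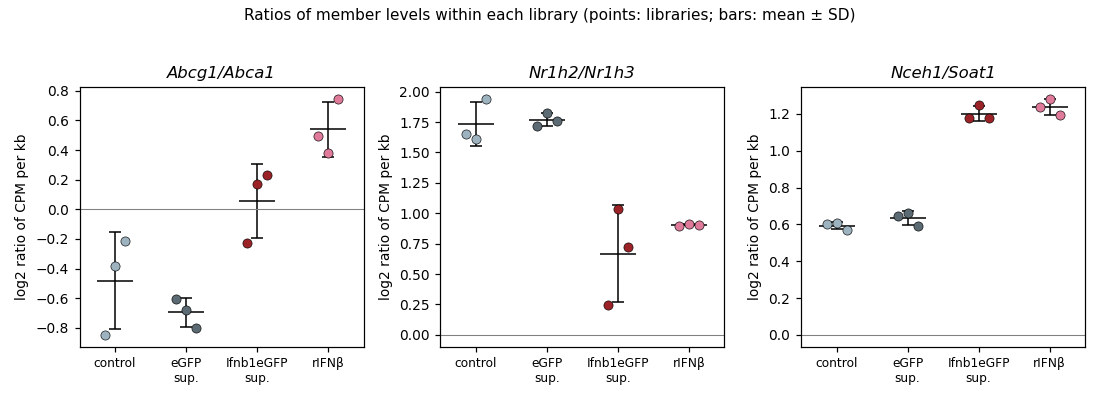
Log2 ratio of CPM per kilobase between member pairs in each library (points) by condition, with the mean ± SD (n = 3). Abcg1 relative to Abca1 goes from a mean of -0.48 in control to 0.54 with rIFNβ, Nr1h2 relative to Nr1h3 from 1.73 to 0.91, and Nceh1 relative to Soat1 from 0.59 to 1.24.

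Ordered by level per length, Nceh1 was highest in all 4 conditions, at 96.1 to 127 CPM per kilobase, and Ch25h lowest, at 0.0903 to 0.268. In control the order below Nceh1 was Soat1 (63.7), Abca1 (53.4), Pltp (48.1), Abcg1 (37.6), Nr1h2 (17.0), Mylip (5.14) and Nr1h3 (5.09). Libraries of the neighbours Soat1 and Abca1, Abca1 and Pltp, and Mylip and Nr1h3 overlapped there, so these ranks are not separated. Close ranks also depend on the length used. Merged exons came to 5060 bases for Nr1h3 and 3320 for Mylip, against 3120 and 3148 in their longest transcripts. With rIFNβ, Pltp (87.8) stood second and Abca1 (34.1) had dropped below Abcg1 (49.2), while Soat1 (51.1) and Abcg1, and Mylip (10.4) and Nr1h3 (9.61), overlapped. With Ifnb1eGFP supernatant, Abcg1 (45.9) and Abca1 (44.3) overlapped, as did Nr1h2 (14.3) and Mylip (13.4).

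**Figure D3:**
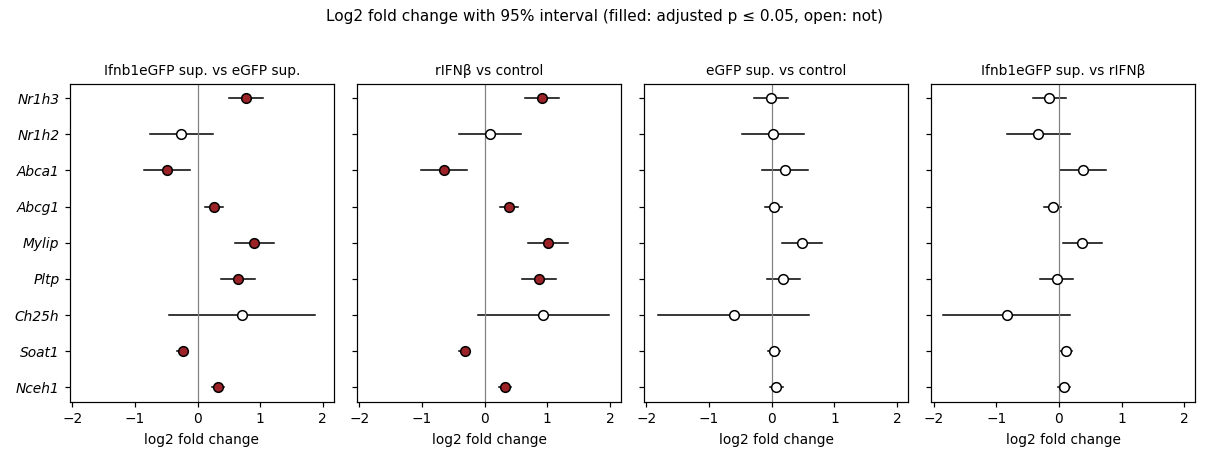
Log2 fold change of the 9 members with its 95% interval in 4 comparisons (filled: adjusted p of at most 0.05, open: not). In both IFNβ comparisons 7 members are filled, Abca1 and Soat1 left of 0, and in the 2 comparisons on the supernatant all 9 are open.

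Whether the supernatant itself touched these genes was asked by setting eGFP supernatant against control and Ifnb1eGFP supernatant against rIFNβ. In the first, 0 of 9 members passed (edgeR's quasi-likelihood test, Benjamini-Hochberg adjustment, background 0.299%), 1 had an unadjusted p under 0.05, and 0 passed with DESeq2. That 1 was Mylip, higher with eGFP supernatant without overlap (log2 fold change 0.48, 95% interval 0.16 to 0.80, adjusted p = 0.320). With same-numbered libraries blocked in the edgeR fit, Mylip was called here (0.47, adjusted p = 0.0278), though the numbers were not taken to pair these libraries. Pltp was the other member without overlap (0.18, 95% interval -0.08 to 0.45, adjusted p = 0.819), and 15.5% of tested genes did not overlap here. For the other 7 members the 95% intervals of the log2 fold change included 0, from -0.05 to 0.13 for Soat1 to -1.81 to 0.60 for Ch25h. Ifnb1eGFP supernatant against rIFNβ likewise gave 0 of 9 members by edgeR (background 0.16%) and 0 by DESeq2, with 3 at an unadjusted p under 0.05. These were Abca1, higher with the supernatant by 0.38 (95% interval 0.01 to 0.75, adjusted p = 0.581), Mylip by 0.37 (0.06 to 0.68, adjusted p = 0.555) and Soat1 by 0.11 (0.03 to 0.20, adjusted p = 0.525). The values are from the fit that ignores replicate numbers. With same-numbered libraries blocked, 0 of 9 members passed in Ifnb1eGFP supernatant against rIFNβ too. Abca1, Soat1, Nceh1 and Ch25h did not overlap between these groups, beside 12.9% of all tested genes, with Ch25h alone of the 4 lower with the supernatant. Without Ifnb1eGFP supernatant replicate 2, Nr1h2 was called lower than with rIFNβ (-0.68, adjusted p = 0.0383), and the number of all genes called went from 24 to 1051.

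Pooled over both IFNβ states, the supernatant contrast gave 0 of 9 members by edgeR (background 0.905%), 4 at an unadjusted p under 0.05 (Mylip, Soat1, Abca1 and Nceh1) and 1, Mylip, by DESeq2. Mylip was higher by 0.43 on the log2 scale (SE 0.10, adjusted p = 0.100). By edgeR it was called with same-numbered libraries blocked (adjusted p = 0.0052) and with no filter (adjusted p = 0.0061). It was called too with the GC content and length trend removed and the block added (adjusted p = 0.0053), there together with Abca1 (adjusted p = 0.0291). The test of whether the IFNβ difference depended on the supernatant, an interaction term, gave 0 of 9 members by edgeR (background 0%), 0 at an unadjusted p under 0.05 and 0 by DESeq2. Its 95% intervals were -0.13 to 0.14 for Nceh1, -0.05 to 0.20 for Soat1 and -0.33 to 0.07 for Abcg1, and wider for the others, such as -0.55 to 0.34 for Mylip and -0.35 to 0.68 for Abca1.

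The wider pathway was read from 7 lists of 65 other genes, of which 57 were tested. With Ifnb1eGFP against eGFP supernatant, 19 rose and 20 fell (68.4% of those tested, against 55.1% of all genes), and with rIFNβ against control 21 rose and 19 fell (70.2% against 55.3%). In the lipoprotein uptake list, 5 of 6 tested genes fell in each comparison (beside 25% and 24.6% of all tested genes) and 0 rose. Lrp8, an apolipoprotein E receptor, went from 7.79 ± 0.529 CPM with eGFP to 2.27 ± 0.291 CPM with Ifnb1eGFP supernatant (log2 fold change -1.78, adjusted p = 4.28e-07; SD, n = 3). Olr1, a scavenger receptor, is counted among the 5, but it passed the filter only through the groups without IFNβ, with at most 58 counts a library after eGFP supernatant and at most 3 after Ifnb1eGFP supernatant, so no fold is given for it. The list's median log2 fold change, which includes Olr1, was -0.89, against 0.03 over all tested genes. Both tested genes of the list of other efflux carriers fell as well, Abca7, a transporter related to Abca1, by 1.26 on the log2 scale, and Scarb1, a receptor for HDL, by 0.53. Among the efflux transporters measured, Abcg1 was the one called higher.

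Other LXR target genes split, with 4 of 13 higher and 5 lower with Ifnb1eGFP supernatant. Over all tested genes 30.1% were called higher and 25% lower, so the share higher stood at the background. Smpdl3a, a phosphodiesterase, went from 256 ± 13.7 to 592 ± 50.2 CPM (log2 fold change 1.21, adjusted p = 4.22e-08), and Apoe, an apolipoprotein that accepts cholesterol, from 554 ± 128 to 1063 ± 354 CPM (0.94, adjusted p = 0.00424; SD, n = 3). Scd2 and Scd1, desaturases that make monounsaturated fatty acids, fell by 3.68 and 2.41 on the log2 scale, Scd2 from 458 ± 12.5 to 35.7 ± 0.707 CPM. Receptor partners and coregulators had 5 of 9 higher and 0 lower beside the same background, led by the coactivators Ncoa3 and Ncoa2 (0.64 each).

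Around oxysterols, Cyp27a1, which makes 27-hydroxycholesterol, rose from 13.6 ± 0.835 to 21.1 ± 0.301 CPM (log2 fold change 0.64, adjusted p = 4.7e-06). Hsd3b7, which leads oxysterols toward bile acids, fell by 0.59. Sult2b1, which sulfates oxysterols, was called lower too, but on few counts. It had at most 32 counts a library after eGFP supernatant and at most 10 after Ifnb1eGFP supernatant, so no fold is given for it. Among the oxysterol-binding proteins 3 of 11 rose, with Osbpl9 (0.49) and Osbp2 (0.45, adjusted p = 0.0356) first, and 2 fell, Osbpl3 (-1.09) and Osbpl11 (-0.35), shares below the 30.1% and 25% of all tested genes. The Osbp2 call was lost, among others, when the fit held only the compared conditions (adjusted p = 0.0766) and without Ifnb1eGFP supernatant replicate 2 (0.25, adjusted p = 0.141).

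Beside Soat1 and Nceh1, the list of ester turnover and lysosomal export had 6 of 11 genes higher and 4 lower, beside 30.1% and 25% of all tested genes. Soat2, the second esterifying enzyme, rose where Soat1 fell, from 1.38 ± 0.374 to 5.18 ± 0.954 CPM (log2 fold change 1.90, adjusted p = 1.28e-05), while Soat1 stood at 591 ± 21.4 CPM in the same libraries. Plin2, the coat protein of lipid droplets, went from 1170 ± 56.1 to 3048 ± 152 CPM (1.38, adjusted p = 2.24e-09). Stard4, a carrier of free cholesterol, fell by 2.32 on the log2 scale, and Gramd1a by 0.26 (adjusted p = 0.0434), a call lost with the GC content and length trend removed (-0.07, adjusted p = 0.285) and with the fit on the compared conditions alone (adjusted p = 0.122).

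**Figure D4:**
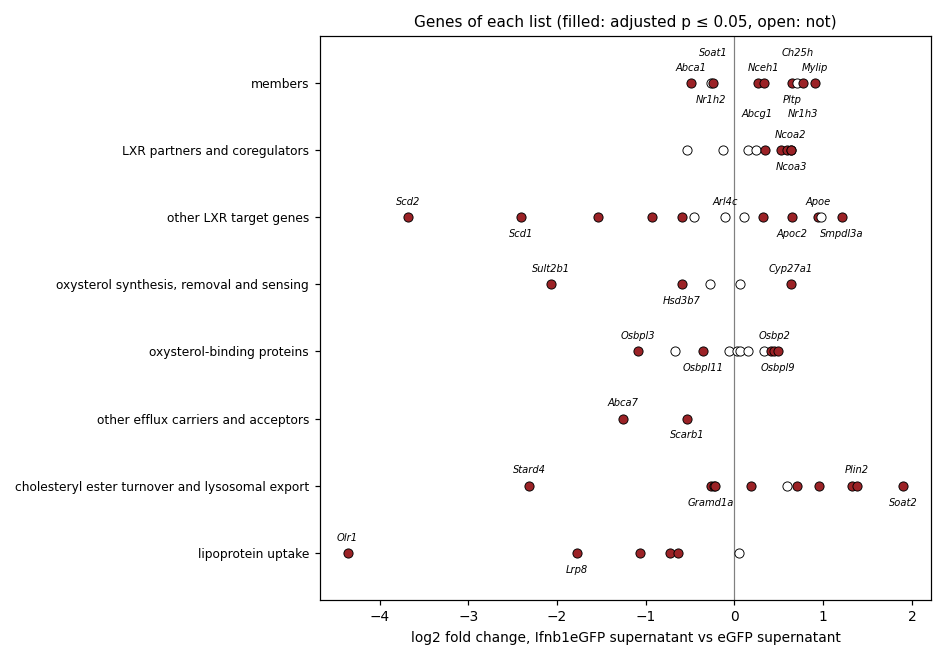
Log2 fold change of each tested gene of the members and the 7 lists (rows) for Ifnb1eGFP against eGFP supernatant (filled: adjusted p of at most 0.05, open: not). The lipoprotein uptake row has 5 of 6 points filled left of 0, the farthest of them Olr1, whose position rests on at most 3 counts per Ifnb1eGFP library, and the members lie between -0.48 and 0.90.

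Of the 57 list genes, 3 LXR targets were called in eGFP supernatant against control, where no member was. Apoc2, an apolipoprotein that activates lipoprotein lipase, went from 2.55 ± 0.304 to 5.16 ± 0.292 CPM (log2 fold change 1.01, adjusted p = 0.00196), Scd2 rose by 0.34 (adjusted p = 0.00739), and Arl4c, a small GTPase, by 0.59 (adjusted p = 0.0251). The Arl4c call was lost without control replicate 1 or 2 or any 1 eGFP supernatant library (0.53 to 0.62, adjusted p 0.0726 to 0.150). Apoc2 was also higher with Ifnb1eGFP supernatant than with rIFNβ, at 8.13 ± 0.139 against 4.92 ± 0.292 CPM (0.73, adjusted p = 0.0092), a call lost without Ifnb1eGFP supernatant replicate 3 or any 1 rIFNβ library (0.68 to 0.77, adjusted p 0.0506 to 0.0879). In the pooled supernatant contrast Apoc2, Scd2, Arl4c and Cyp27a1 were higher and Osbpl3 lower, the last 2 with adjusted p of 0.0449 and 0.0475. Both of these calls were lost with RLE factors, with library totals and with no filter (adjusted p 0.0503 to 0.254). They were also lost without any 1 library other than Ifnb1eGFP supernatant replicate 2 (adjusted p 0.07855 to 0.1388).

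Genes whose log2 levels followed a member most closely over the 12 libraries are given as a description, since all points share the 4 conditions. For Abca1 they were Lmln (Pearson's r 0.96), Dicer1 (0.95) and Esyt2 (0.95). For Abcg1 they were Fam53c (0.99), Tmem184b (0.99) and Fblim1 (0.98), and for the sparse counts of Ch25h, B3gntl1 (0.89), Tle1 (0.87) and Zfyve19 (0.87). Among members, Abcg1 and Nr1h3 (0.98) and Mylip and Nceh1 (0.97) were the closest pairs.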

How the data were processed

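Total RNA of 12 BMDM cultures was sequenced with a stranded library kit. The authors deposited unnormalized expected counts per Ensembl gene, made with RSEM version 1.3.3. Their sources name GRCm39 and mm10 together as the reference, and the annotation and strand setting are not given in the sources used here. Fractional estimates made up 12% of the values, and each value was rounded. Symbols, positions and merged exon lengths were taken from GENCODE M39 (GRCm39) for 56017 of 56748 gene IDs.

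Counts were fitted with edgeR 4.0.16 (R 4.3.3, limma 3.58.1): TMM factors, filterByExpr with a minimum count of 10, 4 condition means over all 12 libraries, the quasi-likelihood test and Benjamini-Hochberg adjustment over 15033 genes. A gene of the lists is not reported here and was left out of its list. A gene was called at an adjusted p of at most 0.05. CPM used TMM-scaled totals. The members, lists and tests were chosen with earlier results of these data known. Named were all members and, in each list, the 2 largest called rises and falls in the Ifnb1eGFP against eGFP supernatant comparison, list genes called in a supernatant or interaction contrast, Apoe, and the 3 nearest patterns of Abca1, Abcg1 and Ch25h. Where nothing ties a library to its own mouse, p-values measure the spread between these libraries. Alternatives were DESeq2 1.42.0, RLE factors, library totals, no filter, the compared conditions alone, a replicate block and each library left out, and, chosen after seeing the data, removal of each library's GC content and length trend with splines of 5 degrees of freedom, with and without the block. The test script was tested on simulated data.

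Deviations from the condition means of same-numbered libraries correlated by 0.167 to 0.246 across genes for Ifnb1eGFP supernatant and rIFNβ, all over 0.1, so the replicate numbers were taken to pair these libraries, from the data and the labels' numbers only. The other comparisons had at least 1 pair at or under 0.1. The block left 0 members called in that paired comparison and moved its count of all called genes from 24 to 48.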

Additional observations from a re-analysis of the deposited data

How the results depend on the processing

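In both IFNβ comparisons the 5 members called higher stayed so under every alternative run, joined in 1 of them, for rIFNβ against control, by Nr1h2, and the 2 called lower were Abca1 and Soat1 in all but the leave-outs that ended the Abca1 call. With 1 library left out, the number of members called lower in Ifnb1eGFP against eGFP supernatant was 1 to 2, without Ifnb1eGFP supernatant replicate 2 with Nr1h2 in place of Abca1, and the number called lower against rIFNβ was 0 to 1. No result changed sign while called. With 1 library left out, all genes called numbered 16 to 32 in eGFP supernatant against control (45 with all libraries), 4 to 1051 in Ifnb1eGFP supernatant against rIFNβ (24), and 55 to 531 in the pooled supernatant contrast (136), the highest of the last 2 without Ifnb1eGFP supernatant replicate 2. The cause of these shifts was not tested. Precision is limited by 3 libraries a condition and, for Ch25h, by at most 16 counts a library.

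The replicate block called Mylip in eGFP supernatant against control (1 member higher, 0.47, adjusted p = 0.0278) and in the pooled contrast (1 member, 0.42, adjusted p = 0.0052), and it raised the counts of all genes called to 122, 252 and, against rIFNβ, 48. For eGFP supernatant against control and both IFNβ comparisons the same-numbered correlations were 0.0765 to 0.252, not all over 0.1, so the numbers were not taken to pair libraries. Yet 12 of 12 libraries correlated best with their own number, and whether the numbers mark shared mice was not tested. The block changed no other member call. With the GC content and length trend removed, eGFP supernatant against control had 74 genes called, and with the block added 282, the other supernatant contrasts 89 (against rIFNβ) and 447 (pooled), with Mylip as the 1 member called higher in the first, Mylip and Abca1 (2 members) in the pooled contrast, and Nr1h2 called higher in rIFNβ against control (0.26, adjusted p = 0.0457). With no filter the counts were 75, 41 and, for the interaction, 1, and Mylip was the 1 member called higher in the pooled contrast. On the compared conditions alone they were 22 and 2. DESeq2 gave 204, 115, 349 and, for the interaction, 9, with Mylip as the 1 member called higher in the pooled contrast.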
